A study of Mus musculus with 12 samples.

Results

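Expression of 10 genes of the neural crest was followed along the posterior neural tube of the mouse embryo. The set holds 8 transcription factors that specify crest cells (Foxd3, Sox8, Sox9, Sox10, Snai2, Ets1, Tfap2a and Tfap2b), the cell adhesion molecule Cdh6 and the endothelin receptor Ednrb. They were taken as every probe set whose annotation names exactly 1 gene, that gene being on the list, which gave 24 probe sets of the 34945 with 1 gene symbol and 10 genes of 18193. Of these genes, 9 of 10 had a probe set that passed a filter on low signal and were tested among 12089 genes; Sox8 had none.

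The tissue was neural tube of untreated CD1 mice, an outbred strain, at embryonic day 9.5. The labels' protocols describe a pancreatin digestion (2 mg per ml for 1 min) and separation with needles from ectoderm, endoderm and lateral plate, after which the tube was divided into 6 pieces. Pieces are numbered part 1 to part 6, without a statement of which end is caudal. The design names 2 embryos, and each piece has 2 arrays, replicate 1 and replicate 2, so that all p-values rest on 2 animals.

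Neural crest cells arise at the border between neural plate and surface ectoderm, come to lie in the dorsal neural tube, undergo an epithelial to mesenchymal transition and migrate away to form sensory and autonomic neurons, glia and pigment cells. Border genes such as Pax3, Pax7 and Msx1 come first, then specifiers such as Foxd3, Sox9, Snai2 and the AP-2 factors Tfap2a and Tfap2b, then genes of migrating cells such as Sox10. In the trunk this sequence begins rostrally and spreads toward the tail as the body lengthens, so that 1 embryo holds crest of different ages along its axis. A piece of tube holds few crest cells among many neural progenitors, and in such bulk tissue fewer cells of a type and less RNA per cell cannot be told apart.

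Values are linear array signals scaled alike on all arrays, on which the median of all signals was 17.7 and the medians of single arrays lay between 16.7 and 19.1. The lowest signals cannot be ranked, since no detection call entered the tests. Across genes, both arrays of a piece correlated at r = 0.951 (part 1) to 0.980 (part 5). Of the 8 neural tube markers 7 passed the filter, and the summed signal of all 8 was 5802 and 6207 in part 6, against 799 and 829 in part 1. Olig2 and Nkx6-1, which mark ventral progenitors, did not exceed 1.70 and 2.50 in parts 1 to 3. Markers of surface ectoderm and presomitic mesoderm were highest in parts 1 and 2: the 11 surface ectoderm genes summed to 1381 and 529 in part 1, 645 and 936 in part 2 and between 165 and 419.8 in parts 3 to 6. The 7 presomitic mesoderm genes summed to 2984 and 1379 in part 1, 2034 and 777 in part 2 and between 117 and 352 in parts 3 to 6. The 10 somite and sclerotome genes summed to 177 and 136 in part 1 and 479 and 117 in part 2. In parts 3 to 6 they summed to between 71.4 and 123, which overlaps replicate 2 of part 2. Notochord and floor plate genes did not share the course of these lists, summing to 153 and 70.3 in part 1 and 184 and 145 in part 6. Their highest sum was 593, in replicate 1 of part 2. Blood markers differed widely between arrays of 1 piece, at 53.9 and 9955 in part 1 and 93.1 and 6299 in part 6.

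Different patterns were seen among the crest genes. Foxd3, Ednrb, Cdh6 and, less securely, Tfap2b rose with the part number. Ets1 was high at both ends of the series and low between them. Sox10, Snai2 and Tfap2a passed no test along the pieces, Sox8 stayed under the median of all signals, and Sox9 was high in part 6 with calls that depended on the model. The slope test, in which log2(signal + 4.43) was fitted against the part number with limma and p-values were adjusted by Benjamini-Hochberg over all genes, called 4 of the 9 tested members, all upward; over all genes it called 12.7%, 5.66% upward and 7.08% downward. Part 6 minus part 1 was called for 4 of the 9 too, Foxd3, Sox9, Cdh6 and Ednrb, all higher in part 6, while 4.17% of all genes were called higher there and 4.92% lower. Slopes of the tested members had a median of 0.39 log2 per part and ranged from -0.19 to 1.10, and the median over all genes was -0.0073. Foxd3 and Ednrb exceeded their array's median only in the higher-numbered pieces (5 and 8 arrays), so that passing the filter and differing along the pieces are not independent for them. Both arrays of part 6 lay above both arrays of part 1 for 7 of the 9, while 20.2% of all genes showed this, and below them for 0 of the 9, against 26.7% of all genes. Among the 7 was Sox10, at 21.7 and 20.8 in part 6 and 19.9 and 17.8 in part 1. Members were chosen with earlier results of these data known, so the shares set against all genes are descriptions and no test of the set. Of the neural tube markers, 6 of the 7 tested rose along the same pieces, and their part in these results was not tested.

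**Figure D1:**
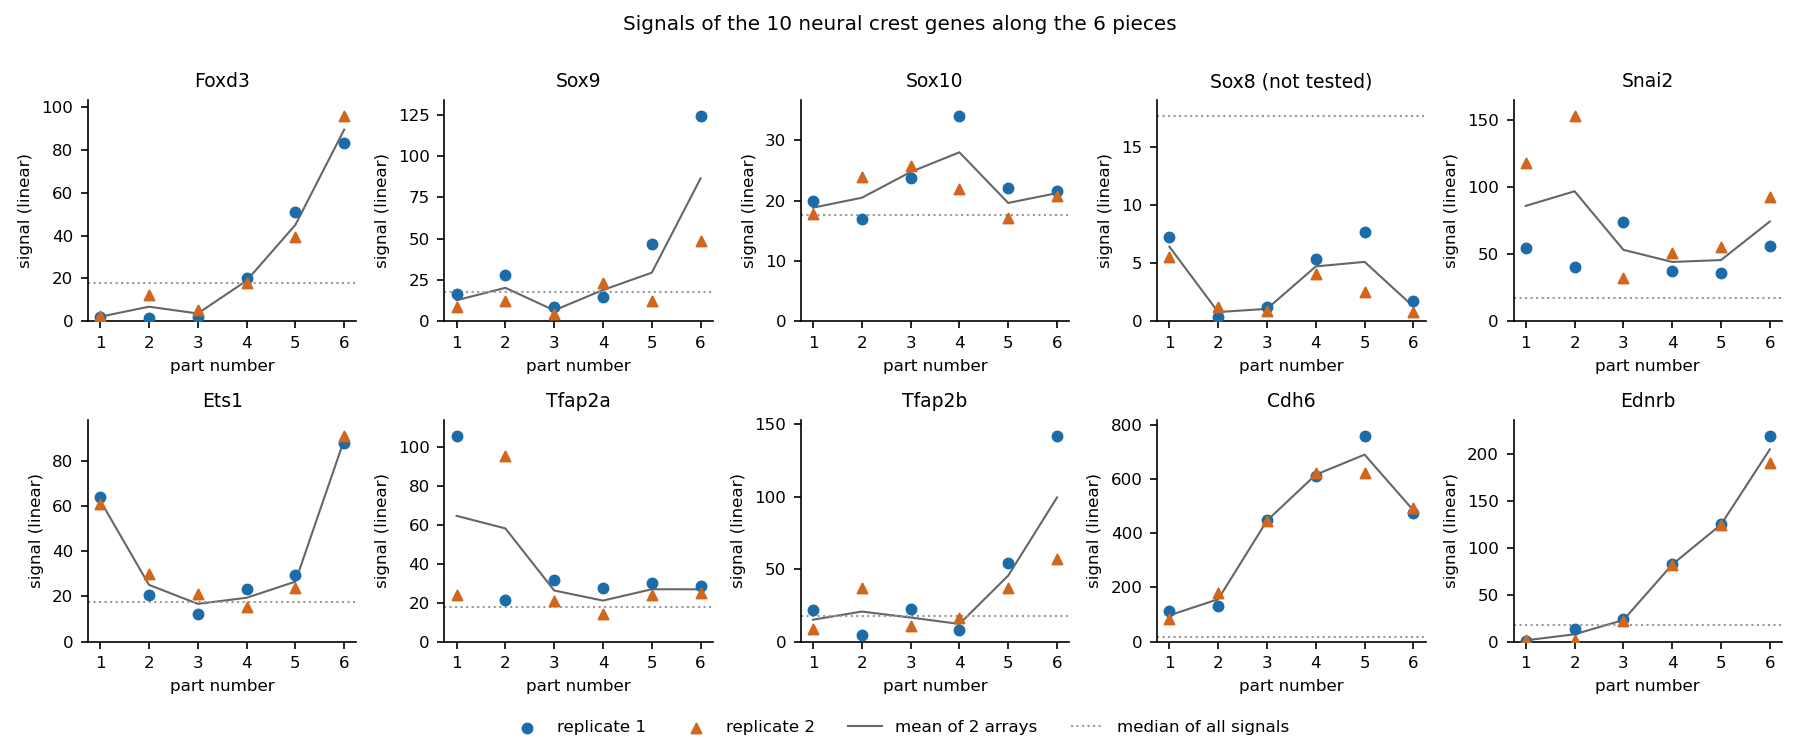
Linear array signal of the 10 crest genes (y axis, arbitrary units, from 0) against part number (x axis). Points are single arrays of replicate 1 and replicate 2, the grey line joins the means of 2 arrays, and the dotted line marks the median of all signals, 17.7; Sox8 lies under that line in every piece, Foxd3 and Ednrb climb to part 6, Cdh6 peaks in part 5 and Ets1 is high in parts 1 and 6.

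Foxd3 encodes a forkhead factor that is among the first genes of committed trunk crest and keeps crest progenitors multipotent. Its single probe set had signals of 1.91 and 2.40 in part 1, 1.43 and 12.2 in part 2, 1.89 and 5.42 in part 3, 20.1 and 17.9 in part 4, 50.8 and 39.2 in part 5 and 83.0 and 95.8 in part 6, replicate 1 being given first here and throughout. Parts 6, 5 and 4 did not overlap with each other or with the lower pieces, and the order of parts 1, 2 and 3, all under the median of all signals, is not resolved. The mean of part 4 was 21.2% and that of part 5 was 50.3% of the mean of part 6. The slope was 0.79 ± 0.092 log2 per part (SE, limma adjusted p = 8.45e-05), and slopes fitted within each embryo were 0.87 in replicate 1 and 0.71 in replicate 2. Part 6 exceeded part 1 by 3.83 ± 0.41 log2 (limma adjusted p = 0.000487), a size that depends on the offset because part 1 lay below it.

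Members that rose together were looked at for shared promoter letters, and the promoter of Foxd3 is shown for comparison with those of Ednrb and Cdh6 further on. It covers chr4:99656049-99656348 of GRCm38.p6 on the + strand, from 250 bases before to 50 after the start site in RefSeq, and capitals would mark a motif match. It held neither the SOX core (ACAAAG or ACAATG), nor the Snail-type E-box (CAGGTG), nor the AP-2 palindrome (GCCNNNGGC) on either strand.
Foxd3 promoter: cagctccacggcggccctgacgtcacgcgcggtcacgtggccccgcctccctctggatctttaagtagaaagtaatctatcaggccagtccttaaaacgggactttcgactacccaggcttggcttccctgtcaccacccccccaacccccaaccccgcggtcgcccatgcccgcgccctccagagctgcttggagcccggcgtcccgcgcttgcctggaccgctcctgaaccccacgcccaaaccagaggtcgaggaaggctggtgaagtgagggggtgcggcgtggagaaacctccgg

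Tfap2b and Tfap2a encode AP-2 factors. Tfap2a acts from the neural plate border onward and is also abundant in surface ectoderm, and Tfap2b is expressed in crest and in dorsal neural cells. The brighter probe set of Tfap2b (1435670_at) had signals of 21.7 and 8.58 in part 1, 4.45 and 37.0 in part 2, 22.2 and 11.0 in part 3, 7.99 and 16.4 in part 4, 54.1 and 37.0 in part 5 and 142 and 57.2 in part 6. Only part 6 stood clear of every other piece, and the order of parts 1 to 4 is not resolved. The dimmer probe set (1423340_at) was at 34.3 and 29.8 in part 6, at 12.6 and 10.2 in part 5 and at no more than 14.2 elsewhere. The pair correlated with r = 0.88 over the 12 arrays. The dimmer one exceeded its array's median on 2 arrays only, both of part 6, so passing the filter and its course are not independent. With every kept probe set tested on its own, its slope was 0.23 ± 0.13 (limma adjusted p = 0.320), and the brighter one had an adjusted p of 0.0569. The slope of the brighter one was 0.44 ± 0.13 log2 per part (limma adjusted p = 0.0442), and part 6 minus part 1 was 2.37 ± 0.70 log2 (limma adjusted p = 0.0703). The slope call was lost in 14 of 22 alternative settings, among them every setting that left out an array of part 3, 5 or 6, replicate 2 of part 1 or replicate 1 of part 2 (limma adjusted p up to 0.156), and the fit that left out part 6 (0.402). With the embryo as a block it stood at an adjusted p of 0.0498.

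Tfap2a passed no test along the pieces. Its brightest probe set (1421996_at) had signals of 105 and 23.6 in part 1, 21.1 and 95.0 in part 2, 31.4 and 21.0 in part 3, 27.7 and 14.4 in part 4, 29.8 and 23.9 in part 5 and 28.7 and 24.9 in part 6. Single arrays stood out, replicate 1 of part 1 and replicate 2 of part 2, while the other 10 arrays lay between 14.4 and 31.4. A probe set shared between transcripts (1426048_s_at) was highest on the same 2 arrays, at 35.2 and 41.5, and followed the first with r = 0.80. The slope was -0.19 ± 0.11 log2 per part (limma adjusted p = 0.305), and another probe set (1421995_at), between 1.32 and 21.0 in signal, correlated with the first at r = 0.22 and had a slope of 0.12 ± 0.11. Surface ectoderm markers were high on the same arrays: of the 10 tested genes of that list, 9 fell with the part number, and the summed signal was 1381 in replicate 1 of part 1, 936 in replicate 2 of part 2 and at most 645 on any other array. The part of surface ectoderm in the Tfap2a signal was not tested. Erbb3, the neuregulin receptor of migrating crest, which epithelia also express, showed the same 2 arrays as highest, at 102 and 68.1, against 18.9 to 40.6 on the others.

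**Figure D2:**
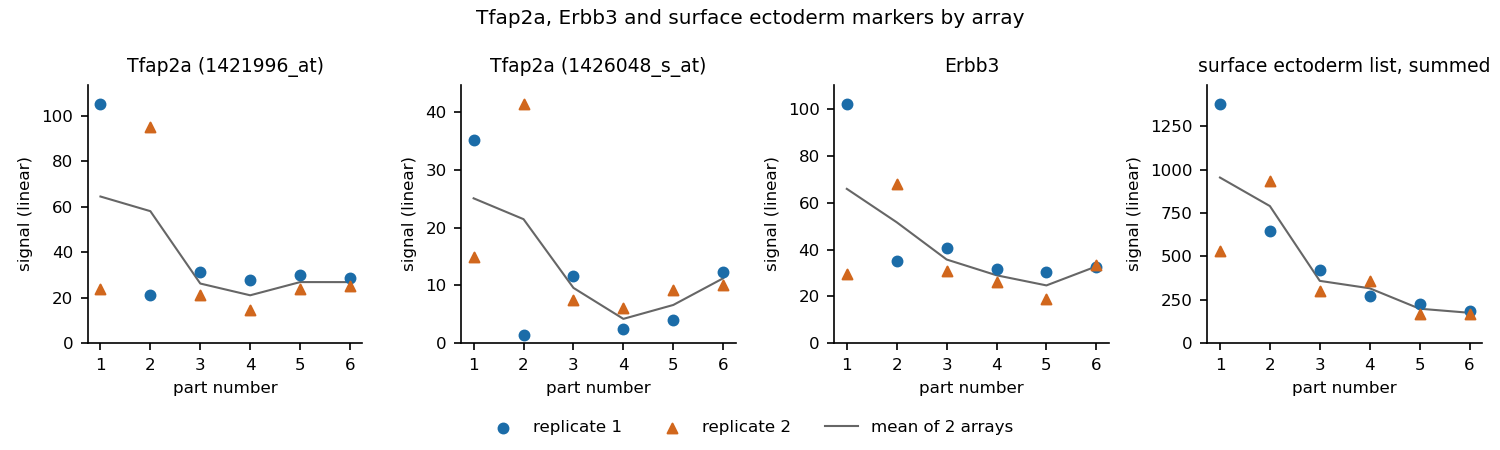
Linear signal (y axis, from 0) against part number (x axis) for 2 probe sets of Tfap2a, for Erbb3 and for the sum of the 11 surface ectoderm markers; points are single arrays and lines join means of 2 arrays. Replicate 1 of part 1 and replicate 2 of part 2 are the highest arrays in all 4 panels.

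Sox8, Sox9 and Sox10 form the SoxE group of HMG box factors. Sox9 acts in premigratory crest, where it is needed for survival at delamination, and it is also turned on in neural tube progenitors; Sox10 marks migrating crest and its glial and pigment lineages, and Sox8 is the less studied of them. The brightest probe set of Sox9 (1451538_at) had signals of 16.6 and 8.93 in part 1, 28.2 and 12.4 in part 2, 8.85 and 4.46 in part 3, 14.9 and 23.0 in part 4, 46.6 and 12.3 in part 5 and 124 and 48.8 in part 6. Both arrays of part 6 were above all others, though replicate 1 of part 5 came close to replicate 2 of part 6. A second probe set (1424950_at) was at 24.5 and 42.4 in part 6, 25.2 and 12.7 in part 5 and at most 7.95 elsewhere, and another (1433889_at) never exceeded 11.9.

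Part 6 minus part 1 for Sox9 was 2.30 ± 0.59 log2 (limma adjusted p = 0.0404), while the slope of 0.39 ± 0.13 log2 per part had an adjusted p of 0.0667 and the F test among the 6 pieces one of 0.140. With the embryo as a block all 3 tests passed, at limma adjusted p of 0.00974 for the ends, 0.0446 for the slope and 0.0325 for F. Without the block the call for the ends was lost on leaving out either array of part 1, 3 or 4 or replicate 1 of part 6 (limma adjusted p up to 0.216), and with an offset of 1 (0.0572), without the filter (0.0706) or with every kept probe set tested on its own (0.0546), in 10 of 20 alternative settings in all. The slope was called in 6 alternative settings, among them the mean of the kept probe sets (limma adjusted p = 0.0331) and limma-trend (0.0453), and F was called with that mean (0.00861). When every kept probe set was tested on its own, the F test called the second probe set (limma adjusted p = 0.00924) and not the first (0.185). The second probe set exceeded its array's median on 3 arrays only, all in parts 5 and 6. Passing the filter and differing along the pieces are therefore not independent for it, nor for the mean that includes it.

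Sox10 passed no test along the pieces. Its brightest probe set (1424985_a_at) had a lowest signal of 17.0, a median of 21.8 and a highest of 34.1 over the 12 arrays, close to the median of all signals. The other probe sets reached no more than 13.3 and 13.5 and did not pass the filter, and the 3 probe sets correlated pairwise at r = -0.39 to 0.029. The slope was 0.020 ± 0.040 log2 per part (limma adjusted p = 0.804). Sox8 had signals between 0.359 and 7.73, above the array median on 0 of 12 arrays, and without the filter its slope was -0.042 ± 0.078 log2 per part (limma adjusted p = 0.835). In that fit part 6 minus part 1 was -0.93 ± 0.27 log2 for Sox8 (unadjusted p = 0.00698, limma adjusted p = 0.0985), and the F test had an adjusted p of 0.180 (unadjusted 0.0103), all on signals under the array medians.

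Snai2 encodes a zinc finger repressor of epithelial adhesion genes, which in the mouse marks migrating more than premigratory crest. The probe set used (1447643_x_at) had signals of 54.3 and 118 in part 1, 40.8 and 153 in part 2, 74.2 and 32.5 in part 3, 37.5 and 51.0 in part 4, 36.2 and 55.1 in part 5 and 56.1 and 92.7 in part 6. Neighbouring pieces overlapped except parts 5 and 6, and replicate 2 was the higher one in 5 of 6 pieces. A suffix of this kind marks probes that may also bind other sequences, and the other probe set of Snai2 (1418673_at) was dim, between 4.66 and 22.4. Neither the slope (-0.092 ± 0.10 log2 per part, limma adjusted p = 0.615) nor the difference of replicate 2 minus replicate 1 (0.57 ± 0.31 log2, limma adjusted p = 0.347) passed. That comparison of the embryos called 0 of the 9 members, against 1.63% of all genes. At an unadjusted p under 0.05 it held Sox9 alone of the 9 members, and 2395 of all 12089 genes. Sox9 was lower in replicate 2 by a log2 difference of -0.76 ± 0.24. Summed blood markers were, like Snai2, higher in replicate 2 in 5 of 6 pieces, part 2 being the exception for blood and part 3 for Snai2. Their part in the difference of Snai2 was not tested.

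Ets1, an ETS factor of cranial and cardiac crest and of endothelium, was high at both ends of the series. Its brightest probe set (1426725_s_at) had signals of 64.0 and 61.1 in part 1, 20.5 and 29.8 in part 2, 12.3 and 21.2 in part 3, 23.4 and 15.5 in part 4, 29.6 and 23.5 in part 5 and 87.9 and 91.1 in part 6. Part 6 lay above part 1, and part 1 lay above every array of parts 2 to 5. A second probe set (1452163_at) gave the same course, at 69.9 and 81.7 in part 6, 47.5 and 40.3 in part 1 and between 5.49 and 27.0 elsewhere, with r = 0.95 between both over the 12 arrays. Dimmer probe sets 1422027_a_at and 1422028_a_at stayed at or under 24.6 and 20.6. Of these, 1422027_a_at passed the filter but did not show the course. It was highest by mean in part 2, at 19.4 and 4.08 in part 6, and correlated with the brightest at r = -0.00047. Tested on its own, its F test did not pass (limma adjusted p = 0.687). The other, which did not pass the filter, correlated with the brightest at r = 0.61.

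The F test among the 6 pieces called Ets1 (limma adjusted p = 0.00397) together with Foxd3, Cdh6 and Ednrb, 4 of the 9 members against 4.91% of all genes, and the call for Ets1 did not hold when part 6 was left out (limma adjusted p = 0.0621). Its slope was 0.082 ± 0.13 log2 per part (limma adjusted p = 0.757). Part 2 minus part 1 was -1.20 ± 0.26 log2 (limma adjusted p = 0.139) and part 6 minus part 5 was 1.61 ± 0.26 log2 (0.181), so that neither single step passed over all genes. The sum of the endothelial markers did not follow the course of Ets1. The 11 genes of that list summed to between 83.6 and 154 on all arrays, 2 of the 11 passed the filter, 0 of these were called, and the defining genes Pecam1 and Cdh5 had highest signals of 8.89 and 11.4. The endothelial genes that passed, Egfl7 and Kdr, had means of 64.1 and 16.1 in part 1 and 38.6 and 18.3 in part 6. The part of endothelium in the Ets1 signal was not tested. Surface ectoderm and presomitic mesoderm markers were high in part 1 and low in part 6, and their part in the Ets1 signal of part 1 was not tested.

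**Figure D3:**
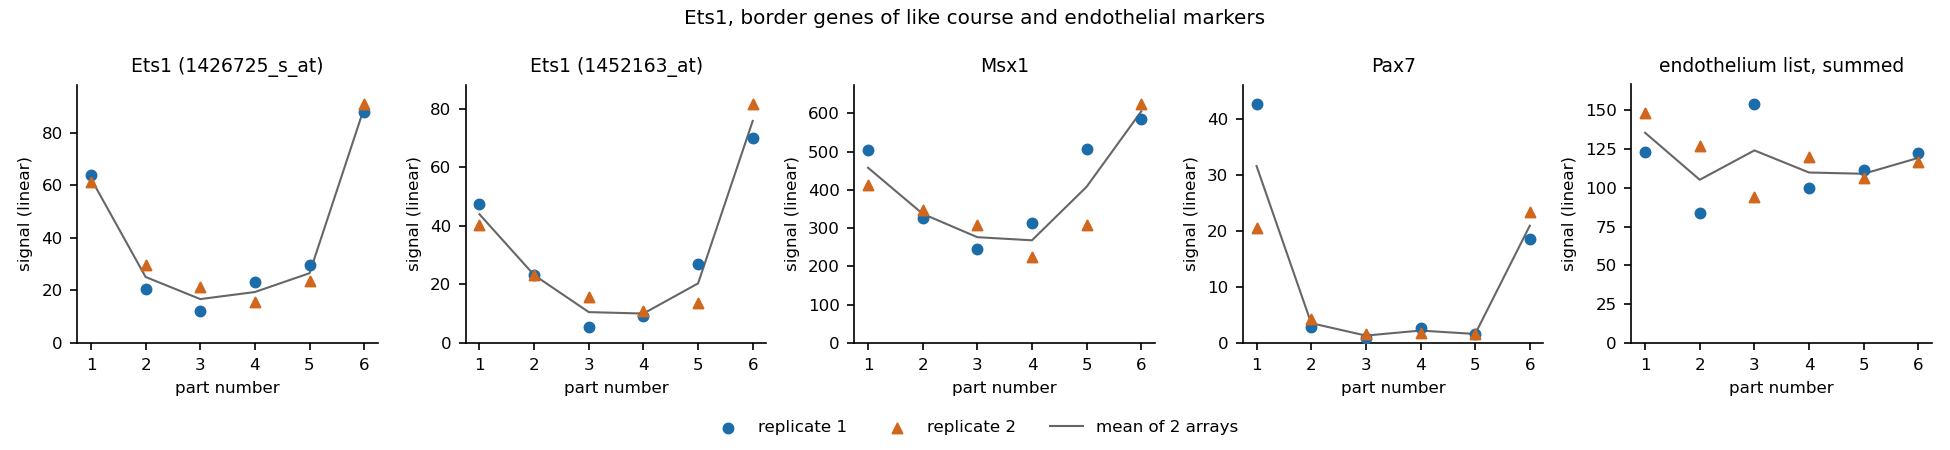
Linear signal (y axis, from 0) against part number (x axis) for 2 probe sets of Ets1, for the border genes Msx1 and Pax7 and for the sum of the 11 endothelial markers; points are single arrays and lines join means of 2 arrays. Ets1, Msx1 and Pax7 are lowest in inner pieces, and the endothelial sum stays between 83.6 and 154.

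Cdh6 encodes a type II cadherin of premigratory crest and dorsal neural tube. Its brighter probe set (1442257_at) was at 112 and 81.9 in part 1, 132 and 181 in part 2, 448 and 444 in part 3, 611 and 620.1 in part 4, 758 and 621 in part 5 and 474 and 494 in part 6. No adjacent pair in the order of levels, part 5, 4, 6, 3, 2 and 1, overlapped, although part 4 and part 5 were separated by little. The dimmer probe set (1450288_at) was highest in part 5 too, by its mean, at 97.1 and 108, with 98.4 and 70.2 in part 4 and 70.9 and 76.6 in part 6, and correlated with the first at r = 0.95. The slope was 0.52 ± 0.093 log2 per part (limma adjusted p = 0.00220) and part 6 minus part 1 was 2.28 ± 0.21 log2 (limma adjusted p = 0.000184). Leaving out part 1 ended the slope call (limma adjusted p = 0.0801).

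The largest step of Cdh6 lay between parts 2 and 3. Part 3 minus part 2 was 1.51 ± 0.21 log2 (limma adjusted p = 0.0351), the only call among all members in the 5 comparisons of consecutive pieces, where 0.19% of all genes were called for this step and 0.091% were called upward. The other steps called 0.248% of all genes (part 2 minus part 1) and 0.00827% (each of part 4 minus part 3, part 5 minus part 4 and part 6 minus part 5). It was lost in 14 of 23 alternative settings, including each that left out replicate 1 of part 2 or any array of parts 3 to 6 (limma adjusted p up to 0.225). Part 6 was lower than part 5 by a log2 difference of -0.50 ± 0.21, which did not pass (limma adjusted p = 1.00).

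The Cdh6 promoter held 1 SOX core and 1 AP-2 palindrome, shown in capitals, which did not overlap. It covers chr15:13173626-13173925 of GRCm38.p6 on the - strand in RefSeq. The window lies inside the gene, whose span is chr15:13028699-13176407, and not at its outermost start.
Cdh6 promoter: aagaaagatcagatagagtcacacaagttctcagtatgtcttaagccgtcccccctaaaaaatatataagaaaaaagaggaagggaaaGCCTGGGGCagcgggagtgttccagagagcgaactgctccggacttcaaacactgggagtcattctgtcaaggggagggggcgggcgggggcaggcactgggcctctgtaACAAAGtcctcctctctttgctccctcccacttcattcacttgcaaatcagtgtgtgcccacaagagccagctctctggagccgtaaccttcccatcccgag

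Ednrb encodes the receptor through which endothelin 3 supports crest cells of the pigment and enteric lineages. Its brightest probe set (1437347_at) had signals of 1.06 and 1.62 in part 1, 13.6 and 1.92 in part 2, 24.5 and 21.5 in part 3, 82.9 and 81.5 in part 4, 125 and 124 in part 5 and 219 and 191 in part 6. Every piece lay above the piece before it without overlap of the arrays, though parts 1 and 2 were under the median of all signals. The slope was 1.10 ± 0.072 log2 per part (limma adjusted p = 6.76e-07), the steepest of the set, at 1.05 in replicate 1 and 1.14 in replicate 2. Part 6 minus part 1 was 5.18 ± 0.38 log2 (limma adjusted p = 4.44e-05), again with part 1 under the offset. The other probe sets did not show this course: 1423594_a_at was at 32.9 and 57.1 in part 6 and 19.6 and 21.0 in part 1 (slope 0.18 ± 0.059, limma adjusted p = 0.0784 with every kept probe set tested), and 1426314_at never passed 17.4. Among the tested genes of the endothelin system, Ece1, Ece2 and Edn3, 0 of 3 were called, and Edn3 had signals of 26.9 and 41.0 in part 6 and 13.4 and 71.3 in part 1.

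The Ednrb promoter, chr14:103843652-103843951 of GRCm38.p6 on the - strand in RefSeq, held 1 AP-2 palindrome, in capitals, and no SOX core or Snail-type E-box. The window lies inside the gene, whose span is chr14:103814615-103844508, and not at its outermost start.
Ednrb promoter: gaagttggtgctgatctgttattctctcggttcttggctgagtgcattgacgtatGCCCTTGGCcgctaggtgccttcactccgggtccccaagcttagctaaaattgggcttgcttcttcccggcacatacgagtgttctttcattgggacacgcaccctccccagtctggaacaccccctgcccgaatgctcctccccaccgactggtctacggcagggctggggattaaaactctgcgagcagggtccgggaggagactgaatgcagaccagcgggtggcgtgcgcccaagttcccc

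Promoters were listed for 6 of the 10 genes, in 7 windows, since Tfap2a had a pair. The SOX core was found in 1 of the 7 windows and in 28.6% of all 32851 promoters, the AP-2 palindrome in 2 of 7 and in 16.6%, and the Snail-type E-box in 0 of 7 and in 20.2%. A match is a match of letters and no more.

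**Figure D4:**
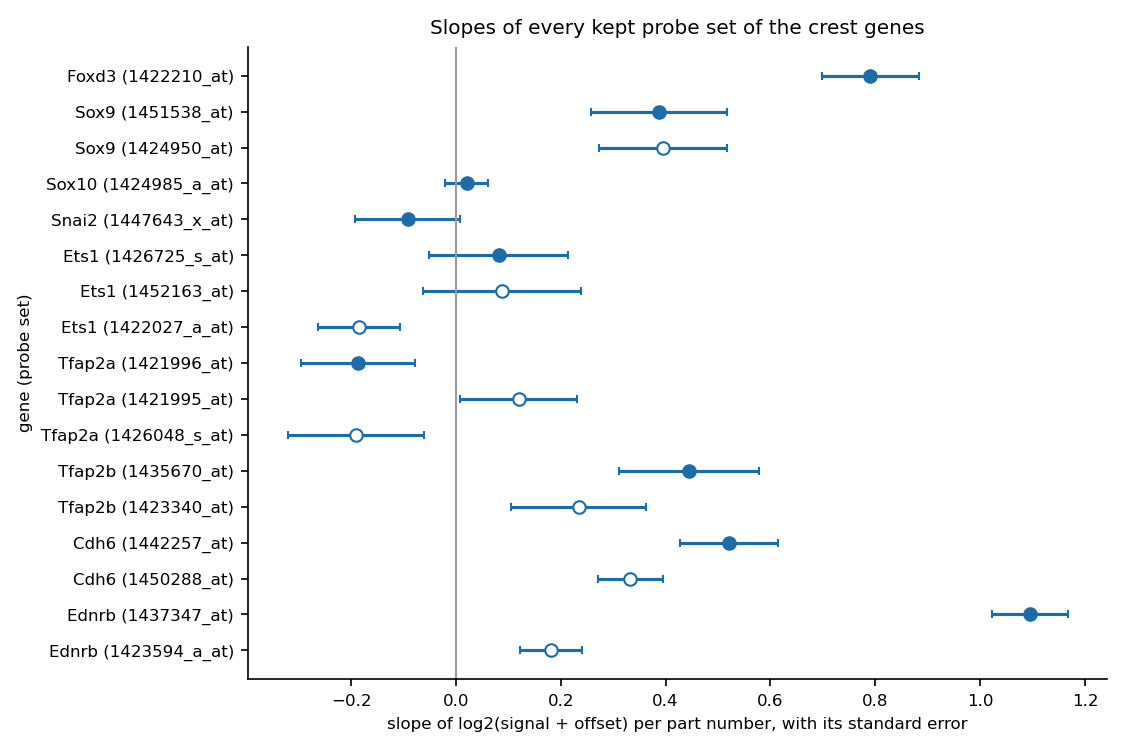
Slope of log2(signal + 4.43) per part number with its standard error (x axis) for the 17 probe sets of the crest genes that passed the filter (y axis), each fitted on its own; filled points are the probe sets used for their gene. Slopes of the same gene differ in size for Cdh6, Ednrb and Tfap2b and in sign for Ets1 and Tfap2a.

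The members that rose differed in the share of their highest mean linear signal reached in each piece, and no test compared them. Relative to its highest piece, Cdh6 had reached 64.7% in part 3 and 89.3% in part 4, Ednrb 11.2% and 40.1%, Foxd3 4.09% and 21.2% and Tfap2b 16.7% and 12.2%. In part 5 the means were 100% for Cdh6, 60.9% for Ednrb, 50.3% for Foxd3 and 45.8% for Tfap2b. On the log2 scale, part 3 minus part 2 was 1.51 ± 0.21 for Cdh6 and 1.35 ± 0.38 for Ednrb. It was -0.32 ± 0.41 for Foxd3 and 0.081 ± 0.70 for Tfap2b. Over the 12 arrays, which share 2 embryos, the closest pairs of members were Cdh6 with Ednrb (r = 0.87), Foxd3 with Ednrb (0.85) and Foxd3 with Tfap2b (0.77), and the most opposed pair was Tfap2a with Ednrb (-0.56). These correlations describe courses along 1 axis and carry no test. Slopes did not pass as different between the embryos for any member, and the same test called 0 of all 12089 genes, 798 of which had an unadjusted p under 0.05.

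**Figure D5:**
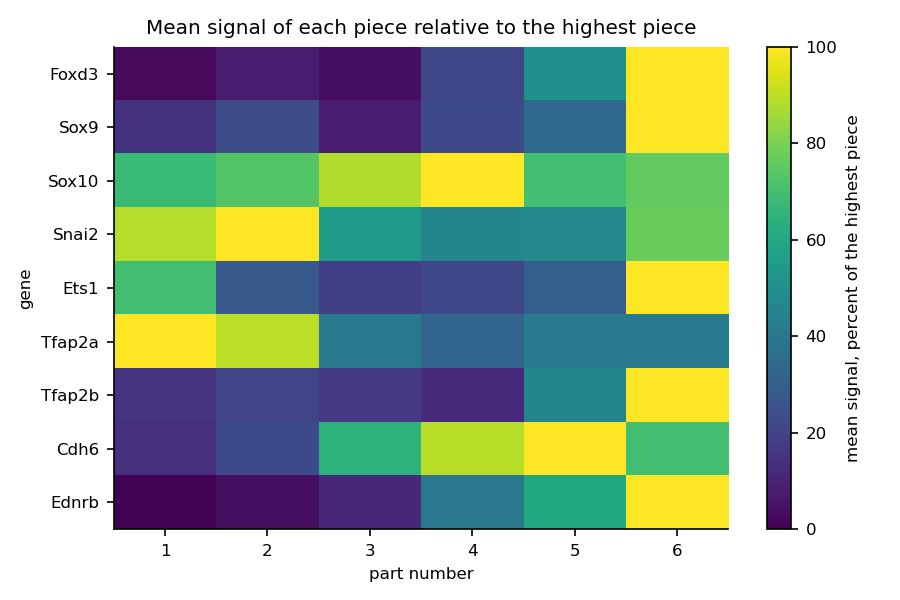
Mean signal of each piece (x axis, part number) as a percent of the gene's highest piece (colour) for the 9 tested crest genes (y axis). Cdh6 is at 64.7% of its maximum in part 3, where Ednrb is at 11.2% and Foxd3 at 4.09%; Ets1 is at 69.9% in part 1 and 100% in part 6.

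Genes outside the set with the most similar courses were ranked by r of the log2 signal over the 12 arrays among all genes tested. For Foxd3 these were Ccnd2 (0.96), the retinoic acid receptor Rarb (0.95) and Pkdcc (0.95), for Ednrb Fmn2 (0.99), Scube2 (0.98) and Selenop (0.98), and for Cdh6 Gdf10, Tox2 and Mest (0.97 each). The nearest genes to Ets1 were the border genes Msx1 (0.91) and Pax7 (0.91) and the BMP regulator Bmper (0.88). Msx1 had signals of 585 and 625 in part 6, 503 and 413 in part 1 and 224 to 507 between them, and its F test did not pass (limma adjusted p = 0.122). Pax7 was at 18.6 and 23.3 in part 6, at 42.8 and 20.5 in part 1 and at most 4.28 between them, with a limma adjusted p of 0.00110 for F. Sox9 was nearest to Npr3 (0.99), Slc25a33 (0.89) and Wfikkn1 (0.88), Tfap2b to Mtmr9 (0.87), Ado (0.86) and Grrp1 (0.86), and Tfap2a to Tmcc3 (0.94), Erbb3 (0.91) and Ap1m2 (0.90). For Sox10 the nearest genes were Pias1, Mgme1 and Pdp1 (0.80 to 0.84) and for Snai2 Stt3b, Ifi27l2b and Stab2 (0.81 to 0.87). Like Tfap2a, Sox10 and Snai2 passed no test along the pieces.

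Border and dorsal genes, the step before the specifiers, moved in different ways. Of 12 tested, 3 rose and 1 fell by slope, 8 did not pass, and 7 passed the F test, with a median slope of 0.11 log2 per part. Pax3, a border factor that stays on in dorsal progenitors, had signals of 911 and 1112 in part 6 and 279 and 232 in part 1 (slope 0.44 ± 0.056, limma adjusted p = 0.000190). Wnt1, a roof plate signal that expands crest, was at 64.8 and 39.4 in part 6 and 5.43 and 3.92 in part 1 (slope 0.57 ± 0.061, limma adjusted p = 4.64e-05), and Zic1 was at 196 and 133 in part 6 and 2.77 and 1.99 in part 1 (0.90 ± 0.14). Wnt3a was lower in part 6, at 47.7 and 26.9, than in part 1, at 305 and 148 (-0.49 ± 0.14, limma adjusted p = 0.0399). Gbx2 and Zic5 passed the F test without a slope and were highest in part 3, at means of 354 ± 162 and 1003 ± 234 (SD, n = 2).

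Of 19 tested genes of the list of other crest specifiers and the epithelial to mesenchymal transition, 4 rose and 4 fell, 11 did not pass, and the median slope was 0.029. Those with the smallest p were Mycn (0.24 ± 0.041 log2 per part), Cdh1 (-0.70 ± 0.12), Cdh11 (-0.24 ± 0.042) and Sox6 (0.35 ± 0.065). Cdh1 is an epithelial cadherin that crest cells lose and that surface ectoderm keeps, and it is also on the surface ectoderm list. Snai1, the relative of Snai2 in premigratory mouse crest, had signals of 11.8 and 20.5 in part 6 and 64.4 and 29.2 in part 1 and did not pass (limma adjusted p = 0.186).

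Of 17 tested genes of migrating crest and its derivatives, 5 rose and 1 fell, 11 did not pass, and 7 passed the F test. Ret, a receptor of enteric crest that spinal neurons also use, was at 135 and 153 in part 6 and 4.20 and 1.84 in part 1 (slope 0.80 ± 0.078, limma adjusted p = 2.14e-05). The guidance receptors Robo2 (0.79 ± 0.12) and Nrp1 (0.51 ± 0.083) rose and Epha4 fell (-0.24 ± 0.055). Fabp7 and Nrp2 passed the F test and not the slope test, Fabp7 with a mean of 51.5 ± 10.5 in part 6 and 518 ± 95.1 in part 1 (SD, n = 2) and Nrp2 with 200.1 ± 10.9 in part 6 and 65.3 ± 30.9 in part 1. Erbb3 (limma adjusted p = 0.136) and the crest receptor Ngfr (0.0931) did not pass.

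Relatives of the members from the same families were listed too. Of 13 tested, 5 rose and 2 fell by slope, 6 did not pass, and the smallest p belonged to Sox21 (0.75 ± 0.072 log2 per part), Ets2 (-0.77 ± 0.088), Etv4 (-0.46 ± 0.061) and Sox1 (0.72 ± 0.10). Ets2, an ETS factor like Ets1, had signals of 251 and 180.3 in part 6 and 3661 and 2404 in part 1. Etv5 passed the F test without a slope (limma adjusted p = 0.0114), with its highest mean of 554 ± 111 in part 3.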

How the data were processed

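Posterior neural tube pieces were measured on 12 Affymetrix arrays. The deposited values are linear intensities that the authors obtained with MAS5, per the submitters' processing notes; its version and settings are not stated in the sources used here. RNA was amplified in a pair of rounds before labelling, per the labels' protocols. The 2% trimmed mean was 100 on every array. Precision is limited by the number of arrays.

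The array holds 45101 probe sets; 64 were controls, 34945 others had 1 gene symbol, 932 several and 9160 none in GEO's platform annotation, and 34741 of the first kind matched RefSeq (GRCm38.p6) by Entrez identifier. A probe set was kept when above its array's median in at least 2 of 12 arrays (21679), and the kept one with the highest mean stood for its gene (12089). Tests used log2(signal + 4.43), where the offset equals 0.25 times the overall median signal; log2 differences understate changes of dim genes. Linear models came from limma 3.58.1 (R 4.3.3), with Benjamini-Hochberg adjustment over all genes at 0.05, and every adjusted p is from these fits. They gave the slope per part number, F among pieces, part 6 minus part 1, consecutive pieces, the slope difference between replicates and replicate 2 minus replicate 1. The models were run on simulated data with independent noise, without an embryo effect, and with planted slopes of 0.25 and 0.5 log2 per part in 100 genes each. Of these the slope test called 73 and 93, F 34 and 79, and part 6 minus part 1 55 and 90. Part 6 minus part 5 called 0 and 0, so a missing call between consecutive pieces does not show that no change of such size is present. Protein sequences were not used here.

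After subtraction of piece means, same-numbered arrays correlated in all 15 pairs of pieces (0.183 to 0.335), so the replicate number was taken to mark the embryo, and the blocked fit is given where it changes a call.

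Named genes were all members, the 3 genes most like each by r (clone and predicted symbols passed over), and up to 4 genes per list by slope p plus up to 3 past the F test alone; Snai1, Erbb3, Ngfr, Edn3 and Msx1 were further named after their values were seen. Members and lists were chosen with earlier results of these data known.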

Additional observations from a re-analysis of the deposited data

How the results depend on the processing

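Members called by slope numbered 4 and fell to 2 with the filter at the 75th percentile, where Foxd3, Sox9, Sox10 and Tfap2b were not tested, and to 2 without both arrays of part 1. Without 1 array in turn the count was 3 to 4 for slope, 4 to 5 for F and 3 to 5 for part 6 minus part 1, which was 2 with the filter at the 75th percentile. Ednrb kept its calls for slope, F and the ends in every setting run, and Foxd3 in every setting that tested it. With every kept probe set on its own, this refers to the probe set used for the gene. The other kept probe set of Ednrb (1423594_a_at) passed none of these tests there. Its limma adjusted p was 0.0784 for slope, 0.440 for F and 0.144 for the ends. For consecutive pieces the count of members, 1, was 0 with an offset of 1, without the filter, with every kept probe set on its own, with the mean of all kept probe sets and without both arrays of part 6, 2 with an offset at the median of all signals, and 0 to 2 without 1 array. Calls over all genes were 1540 for slope, 903 without part 1 and 976 without part 6, and 1177 to 1542 without 1 array. For F they were 594, 306 without part 1, 329 without part 6 and 344 to 566 without 1 array, and for the ends 1099 and 487 to 1305. Summed over consecutive pieces they were 56, against 95 (offset at the median), 21 (no filter), 114 (75th percentile), 87 (replicate block), 100 (limma-trend), 20 (without part 1), 29 (without part 6) and 21 to 133 without 1 array. Between replicates they were 197, against 405 (offset at the median), 114 (no filter), 488 (75th percentile), 806 (every probe set), 611 (limma-trend), 116 (without part 6) and 113 to 161 without 1 array, with 0 to 1 member called, Sox9 without either array of part 4 (-1.01, limma adjusted p = 0.0420).

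The replicate block added the slope and F calls of Sox9 (0.39 log2 per part) and changed no other call of a member for slope, F or the ends. Directions reversed only where the main value was not called: the slope of Sox10 without part 1 (-0.017), that of Ets1 with the mean of probe sets (-0.0054), without either array of part 6 (-0.029 at the lowest; 0.19 at the highest without any 1 array) or without both (-0.25), part 6 minus part 1 of Snai2 without replicate 2 of part 1 (0.38) or replicate 1 of part 6 (0.20; -0.67 to 0.38 without any 1 array), and that of Tfap2a without replicate 1 of part 1 (0.15; -1.81 to 0.15 without any 1 array). Where a setting tests fewer genes or arrays, that is its construction; otherwise the cause was not tested.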
